A study of Danio rerio with 6 samples.

Results

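Short, well-counted lincRNAs were the 68 long intergenic non-coding RNAs (lincRNAs), of 1315 in the lincRNA table, that had a mean raw count of 50 or more over the 6 libraries and a span from start to end under 5000 bases, and that overlapped none of the 171 piRNA clusters of the series. Of 179 lincRNAs with a mean count of 50 or more, 79 were this short. Of these, 6 overlapped a piRNA cluster and 5 more were left out by name. Those 5 all passed both thresholds of the comparison described here, 4 lower and 1 higher in F1-γ, so the members had been chosen in part by that comparison and their values in it are given as a description. The piRNA clusters are loci that give rise to the small RNAs of the PIWI pathway.

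The 6 libraries were made from AB wild-type zebrafish embryos at 5.5 h post-fertilization (50% epiboly, early gastrulation). Each library held a pool of 100 whole embryos. The F1-C group (n = 3 libraries) came from control parents, and the F1-γ group (n = 3) from parents exposed to gamma radiation 1 year before mating (8.7 mGy/h, 5.2 Gy in all). The embryos themselves were not irradiated, and the comparison addresses which small non-coding RNAs differ in offspring after parental exposure. Reads of miR-430, the miRNA family that clears maternal mRNAs in the early zebrafish embryo, made up 83.9% to 88.4% of the miRNA counts in every library.

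lincRNAs are transcripts longer than most small RNAs that lie between protein-coding genes and carry no long reading frame. Some act in the nucleus on chromatin or splicing, some host smaller RNAs, and for most zebrafish lincRNAs no role is known. Small RNA libraries hold short reads only, so a count for a lincRNA is the number of short fragments that fell on it, and an intact transcript leaves no read. The study's methods describe the libraries as non-directional and name Unitas, run with its defaults, for sorting and counting reads; they do not spell out how reads with several mapping positions entered the lincRNA counts. Because pools of embryos were sequenced, fewer cells with a transcript and fewer fragments per cell cannot be told apart.

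A sequence and a gene name were at hand for 2 members, and both were among the 3 tested members that stood lowest in F1-γ relative to F1-C. The study aligned lincRNAs that it had reported as differentially expressed, both of these as lower in F1-γ. Their low standing thus follows from how the sequences were selected, and nothing is read from it. ENSDART00000155864.3 is si:zfos-1451h6.1 (GRCz10 chr11:7139664-7141407, plus strand) and ENSDART00000145442.3 is si:ch211-209a2.1 (chr5:60665272-60669808, plus strand). Their sequences come from the supplementary alignments of the study and are 589 and 633 bases long, within spans of 1744 and 4537 bases. A stretch of 300 bases of each is shown, bases 161 to 460 of the first, which hold a repeat, and bases 334 to 633 of the second, its 3′ end. Capitals mark TACTCTGAAGCAG, the longest stretch that stands at least 3 times in the first, and AATAAA, the signal for cleavage and polyadenylation, in the second.
ENSDART00000155864.3: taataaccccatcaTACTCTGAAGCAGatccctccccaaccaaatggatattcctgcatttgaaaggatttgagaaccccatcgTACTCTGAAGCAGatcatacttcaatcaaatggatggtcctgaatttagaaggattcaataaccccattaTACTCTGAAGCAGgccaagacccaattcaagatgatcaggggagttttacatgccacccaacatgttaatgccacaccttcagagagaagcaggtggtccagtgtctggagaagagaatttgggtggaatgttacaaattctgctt
ENSDART00000145442.3: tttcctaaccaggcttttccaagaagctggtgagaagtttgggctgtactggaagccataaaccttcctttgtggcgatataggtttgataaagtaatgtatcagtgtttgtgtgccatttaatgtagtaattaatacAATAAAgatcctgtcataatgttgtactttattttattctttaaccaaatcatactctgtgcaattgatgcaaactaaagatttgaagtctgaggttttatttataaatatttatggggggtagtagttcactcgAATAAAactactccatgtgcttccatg
In ENSDART00000155864.3 the 13 bases TACTCTGAAGCAG stood at positions 175, 245 and 315 from the 5′ end, always 70 bases apart. Units of 70 bases laid around these copies were identical at 56 of 70 positions (80.0%) between the first and the second, and at 57.1% and 52.9% of positions between each of these and the last. Each unit includes the 13 bases, which were chosen as identical, so they raise all 3 values. AATAAA lay 15 bases before the 3′ end of ENSDART00000155864.3 and 21 bases before that of ENSDART00000145442.3, each with a further copy upstream. Both motifs were searched on both strands, and AATAAA was found 1 and 3 times on the reverse strand. Of 7 other lincRNA sequences in the same source, of 600 to 7477 bases, 5 held AATAAA and 0 held the 13-base stretch. That source, too, covers lincRNAs selected as differentially expressed, so it is not a background of lincRNAs in general.

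RefSeq (assembly GRCz12tu, used for names and gene order only) lists both named members as long non-coding RNA genes. It places si:zfos-1451h6.1 between bmp7a, which encodes a bone morphogenetic protein ligand of dorsoventral patterning, and smim7. Inside si:zfos-1451h6.1 it places 4 small nucleolar RNA (snoRNA) genes. It places si:ch211-209a2.1 between si:ch211-209a2.2 and castor2, with 1 snoRNA gene inside. snoRNAs guide the chemical modification of other RNAs, chiefly ribosomal RNA, and in vertebrates most are cut from the introns of host transcripts. In that annotation 22 of 7586 long non-coding RNA genes (0.29%) overlapped any of its 260 snoRNA genes. That share covers all annotated genes, not those well counted in small RNA libraries, so nothing is read from the contrast. A count sums all reads over a lincRNA, so how many of them lay on the snoRNA genes was not determined. The other 66 members carry transcript identifiers only and were not checked for snoRNA genes.

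**Figure D1:**
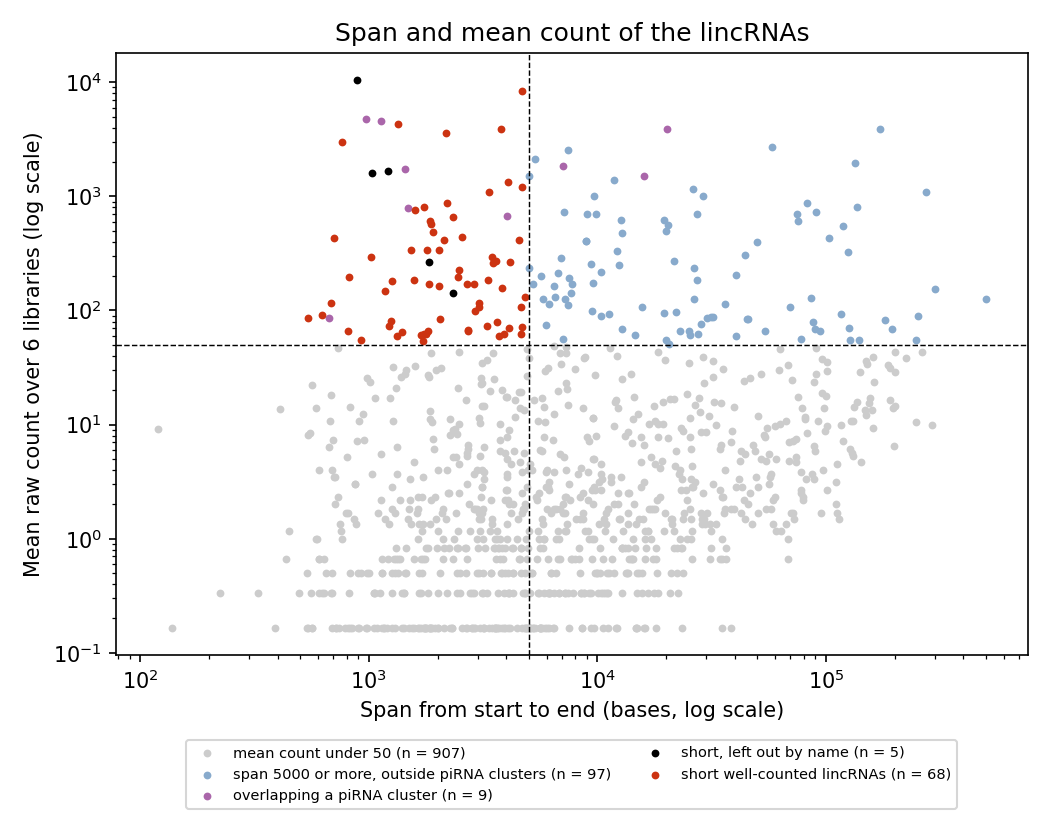
Span from start to end (bases, log scale) against mean raw count over the 6 libraries (log scale), 1 point per lincRNA with at least 1 read. Dashed lines mark the limits of 50 counts and 5000 bases; the 68 short well-counted lincRNAs occupy the upper left field, where 5 black points were left out by name, and the highest of the 68 has a mean count of 8454.

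Libraries held 96906 to 131439 lincRNA counts, of which the members took 33476, 39513 and 31748 across F1-C and 48033, 44534 and 43656 across F1-γ. Their share of lincRNA counts was 31.3% ± 1.24 (SD, n = 3) in F1-C and 35.5% ± 1.19 in F1-γ. A single lincRNA outside the set, ENSDART00000151198.3, held 17.1% ± 2.44 of the lincRNA counts of F1-C and 1.11% ± 0.461 of those of F1-γ. Without it the members' shares were 37.8% ± 0.986 and 35.9% ± 1.36, and their order turned. The total of the snRNA table, the RNAs of the spliceosome, also separated the groups, at 24212 to 30257 counts in F1-C and 5756 to 9138 in F1-γ. Factors of the TMM scaling, which sets the libraries against each other by a trimmed mean over the lincRNAs that passed the filter on low counts, were 0.845 to 0.904 in F1-C and 1.135 to 1.146 in F1-γ. All levels below are CPM, counts scaled to a common library size with these factors. The part of the abundant lincRNA and of the snRNA difference in the members' values was not tested.

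Raw counts were uneven among members. The 5 with the most reads held 57.9% of all member counts, the 10 with the most held 71.1%, and the 34 with the fewest held 7.64%. ENSDART00000165314.2 (chr7:24770920-24775595, plus strand) alone held 21.1%, with 7050, 8558 and 6802 counts across F1-C against 10174, 9621 and 8519 across F1-γ. Raw counts were thus higher on average in F1-γ, the groups just overlapping, but on the TMM scale the order was the opposite, at 82044 ± 4696 CPM in F1-C and 70426 ± 5413 in F1-γ. The fitted fold change on the log2 scale (log2 FC, positive where F1-γ was higher) was -0.22 with a standard error (SE) of 0.112, and its adjusted p was not below 0.05.

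ENSDART00000194285.1 (chr4:60953572-60954917, plus strand) followed with 4199, 4380 and 3502 counts across F1-C against 5020, 3940 and 4966 across F1-γ. Its CPM did not overlap between the groups (44221 ± 1449 against 34607 ± 3927), with a log2 FC of -0.35 (SE 0.113). ENSDART00000156268.3 (chr8:16573960-16577730, minus strand) had 3645, 3885 and 3434 counts against 4529, 3893 and 3972. It too was lower on the CPM scale in every F1-γ library (log2 FC -0.39, SE 0.103).

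ENSDART00000194322.1 (chr4:62144044-62144802, minus strand) had 2447, 3219 and 2761 counts across F1-C against 3066, 3369 and 3041 across F1-γ (log2 FC -0.39, SE 0.123). With a span of 759 bases it had the highest density of the set, 3931 counts per kb of span. These 3 lincRNAs lay past an adjusted p of 0.05 but inside the fold threshold. ENSDART00000194224.1 (chr9:53896699-53898882, minus strand) differed from them in CPM, which overlapped between the groups (30440 ± 7092 against 32846 ± 3143), with a log2 FC of 0.11 (SE 0.167). Its raw counts were higher in every F1-γ library than in any F1-C library (2072, 3320 and 2881 against 4886, 4435 and 3891). The same held for the raw counts of ENSDART00000156268.3, which was lower in CPM. Of the other 5 among the 10 with the highest CPM, ENSDART00000157984.2, ENSDART00000194801.1, ENSDART00000194057.1 and ENSDART00000153750.2 overlapped between groups in CPM, with log2 FC from -0.17 to 0.02. The last, ENSDART00000155864.3, is described below.

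**Figure D2:**
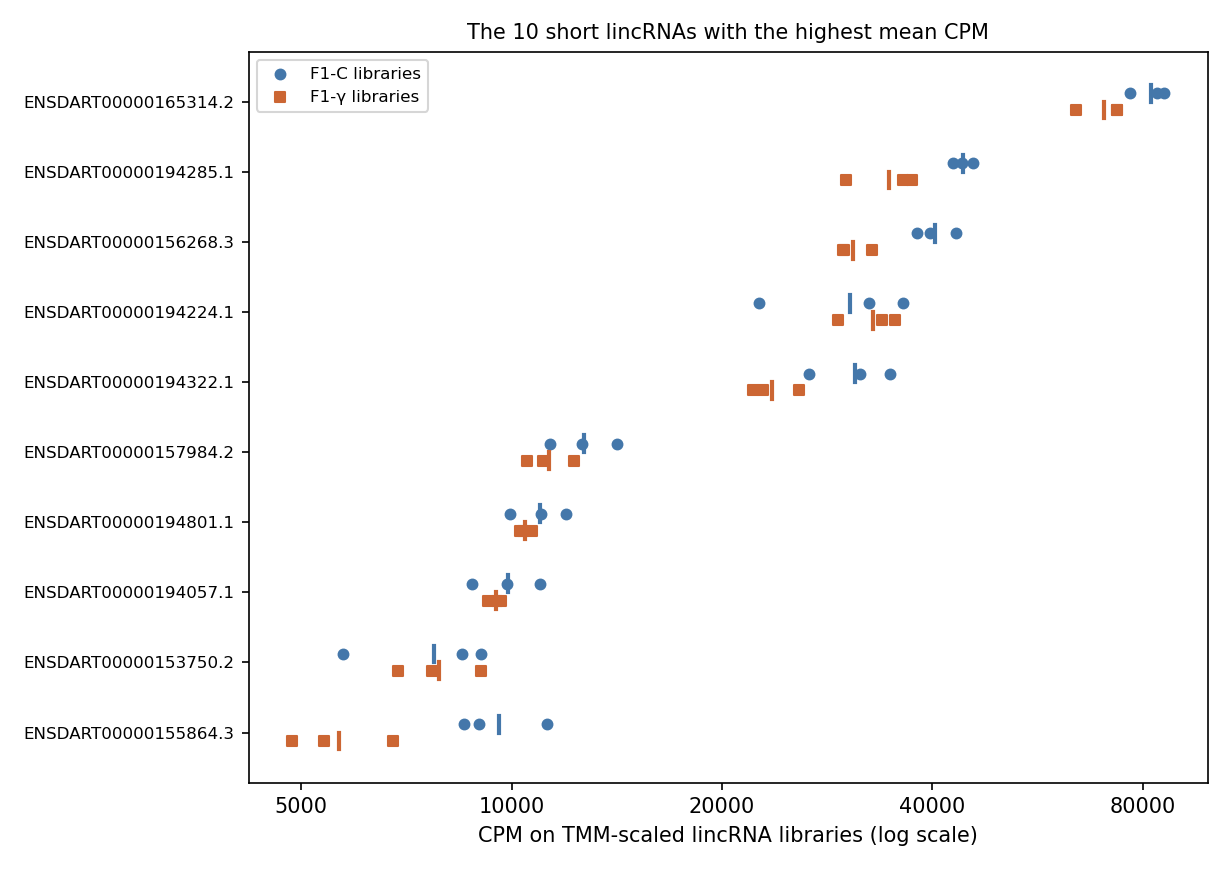
CPM (log scale) of the 10 short lincRNAs with the highest mean CPM in each F1-C library (circles) and F1-γ library (squares), with group means as short vertical bars (n = 3 each). ENSDART00000155864.3, at the bottom, has the widest gap between the groups, 9603 against 5674 CPM on average. Groups do not overlap for 5 of the 10, beside 48.0% of all lincRNAs tested, so nothing is read from that count.

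The fit of F1-γ against F1-C (edgeR, all 125 lincRNAs with more than 100 counts in at least 3 libraries) included 45 of the members. Their median log2 FC was -0.02, against 0.02 over all 125, with 21 above 0 and 24 below. A lincRNA was called when its adjusted p was below 0.05 and its log2 FC above 0.6 or below -0.6. This held for 3 of the 45, all lower in F1-γ, where 14.4% of all lincRNAs tested were called (11.2% lower and 3.2% higher). On adjusted p alone 15 members passed, 6 higher and 9 lower, beside 36.8% of all tested. CPM of the groups did not overlap for 18 members, beside 48.0% of all tested. Without F1-γ replicate 1, 8 members were called (3 higher, 5 lower), of 29 lincRNAs in all. Since lincRNAs with large differences had been left out by name, nothing is read from these counts.

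**Figure D3:**
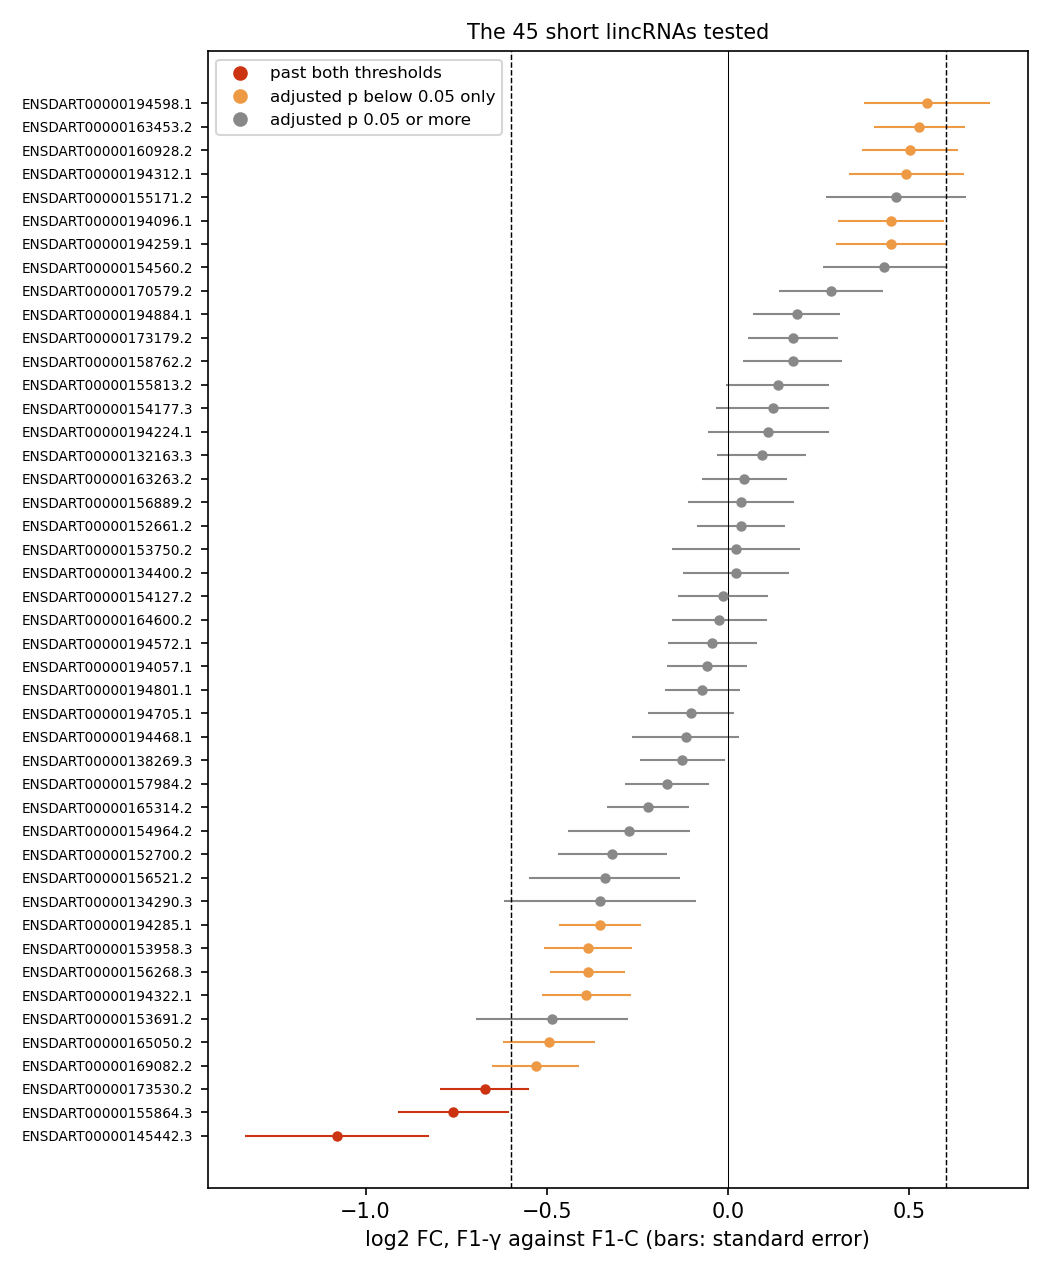
Fitted log2 FC (F1-γ against F1-C) with its standard error for the 45 short lincRNAs tested, ordered by value. Dashed lines mark -0.6 and 0.6; 3 members (red) lie past both thresholds on the lower side, 12 (orange) lie past the adjusted p only, and the highest value is 0.55.

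The 3 called members were those 2 with a name and ENSDART00000173530.2. ENSDART00000145442.3 (si:ch211-209a2.1) had 374, 568 and 513 counts across F1-C against 487, 309 and 228 across F1-γ, or 5363 ± 1208 and 2534 ± 914 CPM. The groups did not overlap in CPM, but they did in raw counts, and the spread within F1-γ was among the widest of the set. Its log2 FC was -1.08 (SE 0.253). The call was lost with piRNA cluster totals, without F1-C replicate 2, without F1-C replicate 3 and without F1-γ replicate 2, while its log2 FC stayed between -1.39 and -0.69 over all 22 fits run.

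ENSDART00000155864.3 (si:zfos-1451h6.1) had 826, 876 and 893 counts across F1-C against 936, 706 and 645 across F1-γ, or 9603 ± 1445 and 5674 ± 984 CPM (log2 FC -0.76, SE 0.154). Every F1-γ library lay below every F1-C library in CPM. The call held whichever library was left out and was lost when lincRNA, miRNA or piRNA cluster totals replaced the TMM scaling. ENSDART00000173530.2 (chr19:8047190-8049742, plus strand), whose role is not annotated in the sources used here, had 491, 486 and 406 counts across F1-C against 474, 428 and 378 across F1-γ, or 5071 ± 299.7 and 3182 ± 299.9 CPM. Its groups were tight and apart in CPM (log2 FC -0.67, SE 0.122), but they overlapped in raw counts. The value lay close to the fold threshold, and the call was made in 16 of the 22 fits. It was lost with lincRNA, miRNA or piRNA cluster totals and with lincRNA totals without the most abundant lincRNA. It was also lost without a filter on low counts and without F1-γ replicate 3. The study, using the same libraries, had likewise reported ENSDART00000173530.2 as lower in F1-γ.

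Among the tested members just short of the fold threshold, the lowest were ENSDART00000169082.2 (log2 FC -0.53, SE 0.120) and ENSDART00000165050.2 (chr1:11986178-11989487; -0.49, SE 0.127). Raw counts of ENSDART00000165050.2 were nearly level between the groups, at 188, 190 and 167 against 193, 172 and 206. The highest were ENSDART00000194598.1 (chr23:15723003-15727802; log2 FC 0.55, SE 0.173), ENSDART00000163453.2 (chr4:63334259-63338898; 0.53, SE 0.126), ENSDART00000160928.2 (chr6:32333923-32336844; 0.50, SE 0.132), ENSDART00000194312.1 (chr18:33068427-33072577; 0.49, SE 0.158) and ENSDART00000155171.2 (0.46, SE 0.194). ENSDART00000163453.2 had 68, 78 and 60 counts across F1-C against 140, 157 and 139 across F1-γ. It is also 1 of 4 members, with ENSDART00000160928.2, that passed the filter on low counts through the F1-γ libraries only. ENSDART00000194598.1 had 74, 104 and 74 counts against 152, 170 and 218, and ENSDART00000194312.1 had 202, 178 and 136 against 306, 361 and 396. All 5 stayed above 0 in every fit run, and 4 of them, all but ENSDART00000155171.2, had CPM groups that did not overlap. They were picked for the highest log2 FC in this same comparison, so nothing is read from their sign or separation.

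The filter kept 23 members out, with mean counts of 54.5 to 90.8. When all 179 lincRNAs with a mean count of 50 or more were fitted, so that every member was included, 9 of the 68 were called, 4 higher and 5 lower, beside 16.8% of all tested (7.82% higher and 8.94% lower). The 5 lower were the 3 above with ENSDART00000150459.3 and ENSDART00000194656.1. Without F1-γ replicate 1, 16 members were called. The number called over all 179 in that fit is not given here, so nothing is read from the 16. All 4 higher members had been kept out by the filter on low counts. They also belong to the 7 members whose mean count was below 50 in F1-C and that met the rule only through F1-γ (0 members met it only through F1-C), so they had to be high in F1-γ to be included, and nothing is read from their calls. Of the 9, ENSDART00000155798.3, ENSDART00000173741.2, ENSDART00000173831.2, ENSDART00000150459.3 and ENSDART00000194656.1 are singled out here after their values were seen.

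The member with the highest log2 FC was ENSDART00000155798.3 (chr3:47650010-47654123, plus strand). It had 27, 35 and 31 counts across F1-C against 123, 97 and 105 across F1-γ, or 342 ± 48.4 and 807 ± 75.2 CPM (log2 FC 1.27, SE 0.177). Its mean count was 31.0 in F1-C and 108.3 in F1-γ, so it met the minimum of 50 only through F1-γ, and the gap between the groups is a description.

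The other 3 higher members lay together on chromosome 7, between 36353797 and 36401716. ENSDART00000173741.2 (36353797 to 36357706, minus strand) had 22, 43 and 28 counts across F1-C against 82, 94 and 105 across F1-γ. ENSDART00000173831.2 (36371155 to 36375806, minus strand) never differed from it by more than 1 count, at 22, 44 and 27 against 82, 94 and 105. ENSDART00000172658.2 (36400034 to 36401716, plus strand) had 22, 43 and 29 against 80, 89 and 104, at most 5 counts from the others. Their log2 FC were 1.07 (SE 0.209), 1.07 (SE 0.211) and 1.01 (SE 0.211). How reads with several mapping positions were counted is not spelled out, so the 3 are not taken as separate observations. ENSDART00000172658.2 also lies wholly within ENSDART00000173850.2 on the opposite strand, a lincRNA outside the set with 30, 54 and 37 counts across F1-C against 87, 98 and 107 across F1-γ.

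The remaining lower pair had low counts. ENSDART00000150459.3 (chr1:48278907-48282629, plus strand) had 71, 69 and 62 counts across F1-C against 60, 43 and 51 across F1-γ (743 ± 59.4 and 382 ± 52.6 CPM, log2 FC -0.92, SE 0.173). It was the 1 member whose raw counts, too, were all lower in F1-γ than in F1-C. Raw counts did not overlap for 46 of the 68 members, 45 of them higher in F1-γ, beside 70.4% of all 179. ENSDART00000194656.1 (chr4:62120592-62121919, plus strand), for which the table's feature column names ENSDART00000194749.1, had 67, 68 and 52 counts against 60, 54 and 54 (log2 FC -0.68, SE 0.156). This pair was called in 9 of 12 fits over the 179 lincRNAs, being lost with lincRNA, miRNA or piRNA cluster totals.

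**Figure D4:**
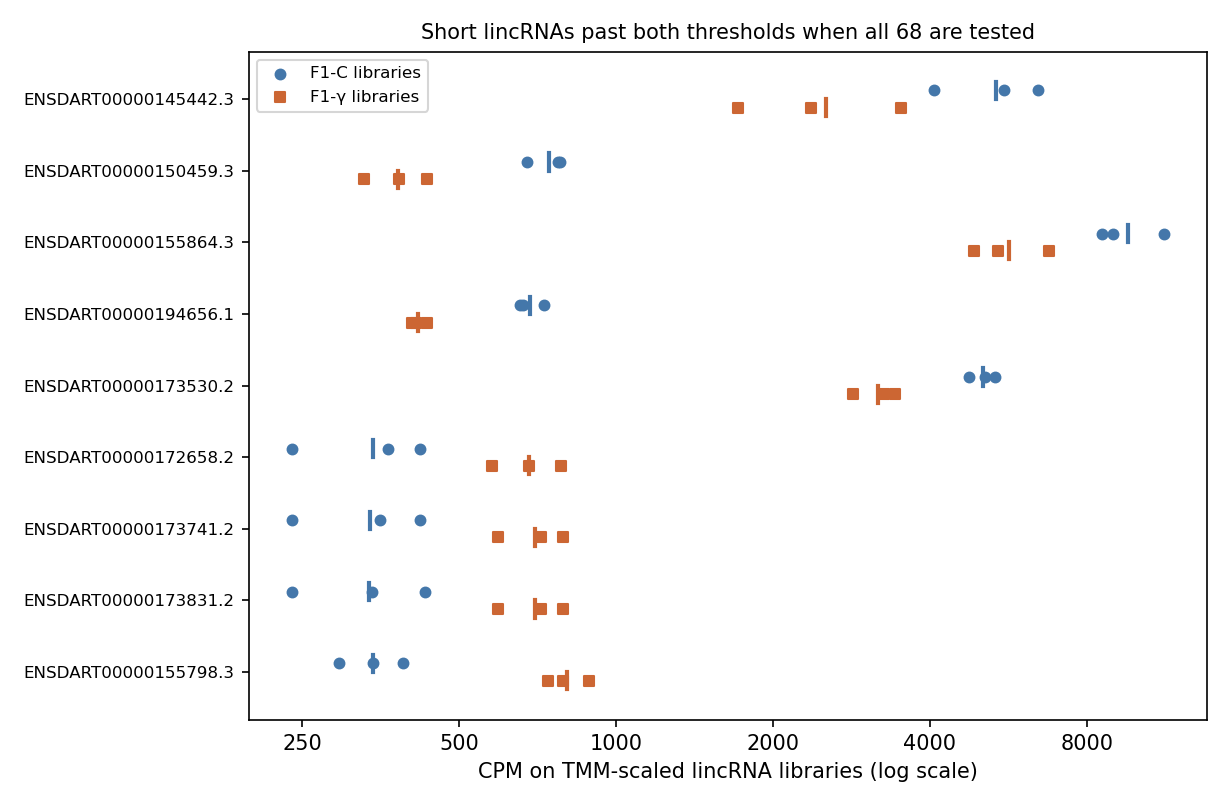
CPM (log scale) of the 9 short lincRNAs called when all 68 were included, in each F1-C library (circles) and F1-γ library (squares), with group means as short vertical bars (n = 3 each). The upper 5 are lower in F1-γ and the lower 4 higher, no pair of groups overlaps, and ENSDART00000172658.2, ENSDART00000173741.2 and ENSDART00000173831.2 have nearly the same values. The 9 are shown because they were called in this comparison, so nothing is read from the gaps.

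The directions above hold on the TMM scale. Raw means were higher in F1-γ for 62 of the 68 members and lower for 6. With lincRNA totals in place of TMM the median log2 FC of the 45 tested members was 0.36 and that of all 125 lincRNAs was 0.41, so that each value moved up by a like amount. Under this scaling 9 members were called higher and 1 lower, beside 43 higher and 8 lower among all 125 lincRNAs. ENSDART00000145442.3, ENSDART00000155864.3 and ENSDART00000173530.2 kept a negative log2 FC under each scaling tried, the highest being -0.69, -0.38 and -0.29. ENSDART00000165314.2 and ENSDART00000194285.1 did not keep their sign: under lincRNA totals they reached 0.16 and 0.03. ENSDART00000157984.2, ENSDART00000194801.1 and ENSDART00000194057.1 also turned, to 0.21, 0.31 and 0.32. ENSDART00000156268.3 and ENSDART00000194322.1 were nearly level between the groups under that scaling, at -0.006 and -0.007.

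**Figure D5:**
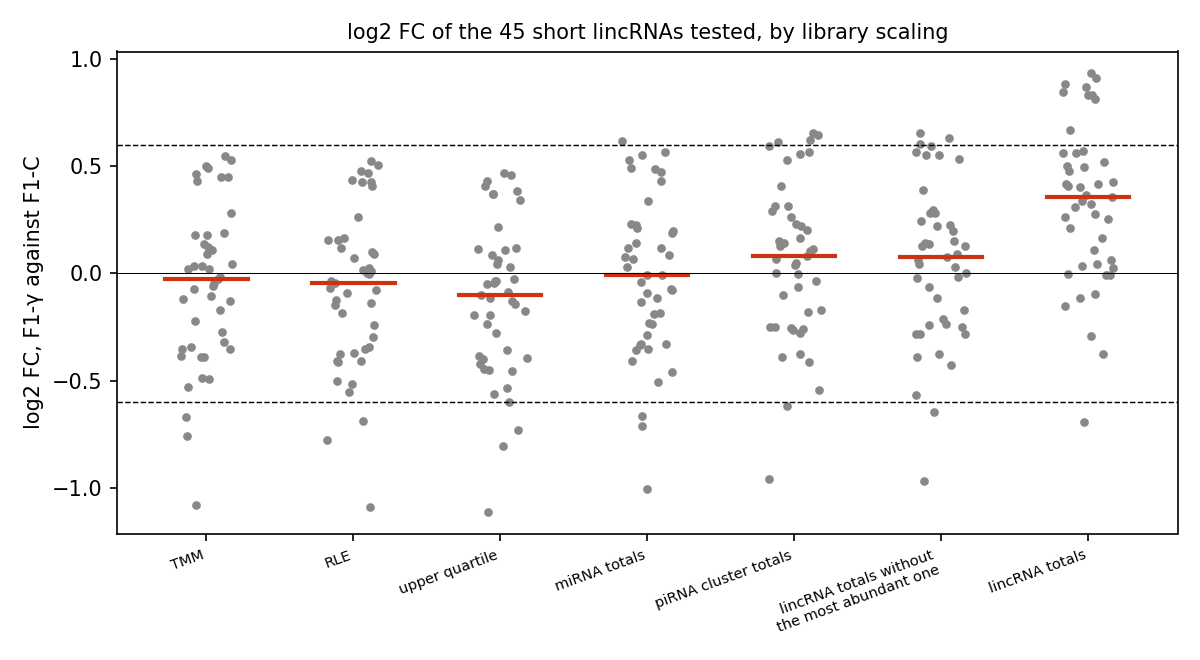
log2 FC (F1-γ against F1-C) of the 45 tested short lincRNAs under 7 scalings of the libraries, 1 point per lincRNA, with the median as a red line and dashed lines at -0.6 and 0.6. The median lies at -0.02 with TMM and at 0.36 with lincRNA totals, and the lowest point, ENSDART00000145442.3, stays below -0.6 throughout.

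The positions of the members are given as a description. Chromosome 4, whose long arm in zebrafish is rich in repeats and poor in conserved genes, held 23 of the 68 members (33.8%), 21 of them beyond 29 Mb. It held 9 of the 97 long-span lincRNAs (9.28%; mean count of 50 or more, span of 5000 or more, outside piRNA clusters) and 128 of all 1315 (9.73%). Of the 9 well-counted lincRNAs that overlap a piRNA cluster, ENSDART00000194589.1, ENSDART00000194944.1 and ENSDART00000194155.1 lay on it as well. A high share on chromosome 4 is thus not read as particular to the members. No test of these differences was made. The chromosome 4 members took 34.9% ± 1.95 of the member counts in F1-C and 33.8% ± 1.40 in F1-γ, a difference within the spread between libraries. Of 16 that were tested, 3 higher and 3 lower passed the adjusted p alone, beside 36.8% of all lincRNAs tested. Of the 3 higher, ENSDART00000194096.1 and ENSDART00000163453.2 passed the filter on low counts through the F1-γ libraries only, so nothing is read from this balance. The log2 FC of the 16 ran from -0.53 to 0.53 (median -0.04), inside the fold threshold. The 29 tested members on other chromosomes had a median of 0.02.

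Members occupied 19 chromosomes, 36 on the plus and 32 on the minus strand. Their density was 80.8 counts per kb of span at the median (13.4 to 3931), against 8.09 for the long-span lincRNAs. It was higher, at 259, for the 9 well-counted lincRNAs overlapping a piRNA cluster, and 1372 for the 5 short lincRNAs left out by name. The rule set the members' density in part, since it limits the span. A span includes introns, so the value is not a level per kb of transcript. Of members named for their position, ENSDART00000194259.1 and ENSDART00000194884.1 on chromosome 4 lie 1106 bases apart on the minus strand, and counts of the latter were 1.08 to 1.59 times those of the former. ENSDART00000158762.2 and ENSDART00000170579.2 on chromosome 11, 8993 bases apart on the minus strand, kept a closer ratio of 0.811 to 0.916 over the 6 libraries.

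Members that share bases with another lincRNA on the opposite strand are uncertain, since libraries described as non-directional may not tell reads of the partners apart. ENSDART00000155171.2 (chr4:14175517-14177552, plus strand) shares all its 2036 bases with ENSDART00000155086.2, and had 99, 123 and 104 counts across F1-C against 163, 239 and 258 across F1-γ, where its partner had 155, 214 and 172 against 244, 321 and 390. ENSDART00000169082.2 (chr4:61636158-61638602, plus strand) shares 834 bases with ENSDART00000164527.2, with 203, 206 and 172 counts against 201, 183 and 208. ENSDART00000171763.2 (chr7:42051167-42052988, minus strand) shares 829 bases with ENSDART00000162394.2 and had 41, 74 and 38 counts against 86, 76 and 81. Overlap with an annotated snRNA gene was found for 0 members.

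Replicate libraries of a group differed in CPM by a median coefficient of variation of 11.03% in F1-C and 9.92% in F1-γ over the members, against 9.05% and 11.8% over the long-span lincRNAs. The widest members in F1-C were ENSDART00000173369.2 (40, 100 and 67 counts, 37.5%), ENSDART00000134290.3 (103, 190 and 182 counts, 33.7%) and ENSDART00000164813.2 (79, 66 and 35 counts, 32.3%). In F1-γ they were ENSDART00000145442.3 (36.1%), ENSDART00000156521.2 (295, 179 and 156 counts, 32.5%) and ENSDART00000173369.2 (113, 144 and 81 counts, 29.2%). In F1-C, replicate 1 lay farthest from the group mean in each, at 435, 1121 and 860 CPM against means of 752, 1757 and 649. For ENSDART00000164813.2, replicate 3 lay almost as far on the other side, at 441 CPM. In F1-γ the farthest was replicate 1 for ENSDART00000145442.3 and ENSDART00000156521.2, and replicate 2 for ENSDART00000173369.2. At the limits of the rule, ENSDART00000154942.2 (mean count 54.5) and ENSDART00000159919.2 (55.3) lay just inside, and ENSDART00000170254.2 (46.8) and ENSDART00000154922.2 (46.2) just outside. By span, ENSDART00000194598.1 (4800 bases) and ENSDART00000194287.1 (4693) lay just inside, and ENSDART00000194901.1 (5003) and ENSDART00000169958.2 (5020) just outside.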

How the data were processed

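Single-end small RNA libraries were sequenced by the authors. The authors trimmed reads (Trim Galore 0.3.7), kept those of small RNA length, mapped them to GRCz10 and deposited raw counts for lincRNAs and snRNAs. The deposited miRNA and piRNA cluster values are estimated counts, since reads with several positions were split. They served here as totals, for the share of miR-430 and as cluster positions. The lincRNA counts (96906 to 131439 a library) were fitted in R 4.3.3 with edgeR 4.0.16 (TMM, quasi-likelihood test, Benjamini-Hochberg adjustment over all lincRNAs tested), and DESeq2 1.42.0 served as an alternative. TMM, the thresholds and the minimum of more than 100 counts follow the study's methods; asking for it in at least 3 libraries was chosen here. The scripts were tested on simulated data. Members and lists were chosen with earlier results of these data known. Replicates are separate pools of embryos. Named members were the 10 with the highest CPM, those called, the 5 highest and 5 lowest log2 FC, those sharing bases or counts, the 3 most variable per group, those with a sequence, and those at the limits of the rule.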

Additional observations from a re-analysis of the deposited data

How the results depend on the processing

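No named member called in its main comparison changed direction in any alternative run, while counts of calls and the median of all members moved with the scaling. The main fit called 18 lincRNAs in all and 3 members, of 125 and 45 tested. Over the same 125 and 45, the counts were 51 and 10 with lincRNA totals in place of TMM (medians 0.41 and 0.36 log2), 10 and 1 with miRNA totals, 9 and 0 with piRNA cluster totals, and 46 and 15 on adjusted p alone. With a mean count of 50 or more they were 30 and 9, of 179 and 68 tested. Without a filter they were 60 and 10, of 1086 and 68 tested. Since the numbers tested differ, these last counts are not set against the main ones. Totals without the most abundant lincRNA, an alternative chosen after seeing the data, gave 5 members (3 higher, 2 lower). Over all lincRNAs tested they gave 15 higher and 10 lower. Leaving out 1 library gave 14 to 29 in all and 2 to 8 members, the highest counts being without F1-γ replicate 1. With all members included, 9 were called. The number called was 15 with lincRNA totals, 5 with miRNA totals and 5 with piRNA cluster totals. Without 1 library it was 8 to 16, again highest without F1-γ replicate 1. The cause was not tested. The fits with these totals and without 1 library were added after seeing the data. The numbers they called over all lincRNAs tested are not given here, so nothing is read from their member counts. The rule gave 44 members with a minimum mean of 100 and 45 with spans under 3000. Members' shares were 37.8% in F1-C without the most abundant lincRNA, and 2.11% in F1-C and 2.03% in F1-γ of all 4 tables. Same-numbered libraries did not deviate together (correlations of -0.204, -0.158 and -0.0924, and 0 libraries closest to their own number), so the numbers were not taken as pairs; with the replicate block 19 lincRNAs and 3 members were called. Over low-count members, counting error limits each value.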

Other observations

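Distance to the nearest piRNA cluster was not used by the rule beyond overlap. Of the 68 short members, 13 (19.1%) lay within 100 kb of a cluster, against 8 of 97 long-span lincRNAs (8.25%), with no test made. The nearest was ENSDART00000194285.1, at 18558 bases.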
